A study of Mus musculus with 4 samples.

Results

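The genes described here make, break down or sense prostaglandin E2, a lipid signal that fibroblasts and other stromal cells release. They were chosen by name for their role: Pla2g4a, Ptgs1, Ptgs2, Ptges, Ptges2, Ptges3, Hpgd, Ptger2, Ptger3 and Ptger4. Of these 10 genes, 9 were measured, each by 1 probe set whose only gene symbol was that gene, out of 41345 probe sets and 22180 named genes. No probe set was matched to Ptgs1, which was not analysed here. The array symbol COX1, an old alias of Ptgs1, belonged by its Entrez identifier to the mitochondrial gene of that name and was not used in its place. For Ptges3, 2 further probe sets also named a pseudogene and were left out. A gene was kept for counts if its mean over the arrays was in the upper 60% of genes, which set the lowest kept mean at 4.51, and 6 of the 9 measured members passed. Hpgd, Ptger2 and Ptger3 did not.

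RNA came from mesenchymal stem cells derived from mouse bone marrow, the adherent stromal cells from which bone, cartilage and fat can form. The 4 groups were Snail1-KO cells given TGF-b1 for 2 h, Snail1-WT cells given TGF-b1 for 2 h, untreated Snail1-KO cells and untreated Snail1-WT cells. Snail1, encoded by Snai1, is a zinc finger repressor, and TGF-b1 is a cytokine that signals through SMAD transcription factors. Each group had 1 Affymetrix array, so a difference between 2 arrays has no replicate check. How the allele was made, whether each genotype was a single line or came from several animals, and the dose of TGF-b1 were not given in the sources used here. The source of the cells cannot be told apart from the genotype. Values are log2 intensities after RMA, and a difference of 1 is 2-fold. Levels are compared between arrays for a gene. Between genes, level served for the filter, to find genes of like level, for list medians and to choose genes to name. It was not used to compare amounts of RNA between genes. An error yardstick, called the noise SD, was taken from how far the responses of both genotypes to TGF-b1 disagreed among the 500 genes nearest in level. It leaves out whatever separates the cultures of the 2 genotypes alike with and without TGF-b1.

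The labels held for the targeted gene: Snai1 measured 5.34 in Snail1-KO and 7.63 in Snail1-WT cells given TGF-b1, and 5.09 in Snail1-KO and 6.69 in Snail1-WT cells without it. Of 14 measured mesenchymal stromal markers 12 were kept, with Pdgfra at 10.7 in untreated Snail1-KO and 11.1 in untreated Snail1-WT cells, while Lepr and Nt5e were below the filter. Among 12 haematopoietic markers, whose cells also make prostaglandin E2, 4 were kept, and the list's median level lay between 3.94 and 4.13 on the 4 arrays. The 4 kept were Cd68 (mean 6.14), Cd14 (6.11), Csf1r (4.64) and Cd3e (4.61). The pan-leukocyte gene Ptprc was below the filter, at 3.49 in untreated Snail1-KO and 3.15 in untreated Snail1-WT cells. Of 7 endothelial markers 3 were kept and of 7 epithelial markers 4, the highest mean among both lists being 5.38. Smooth muscle and pericyte markers were mostly kept, 7 of 8. No gene of these 5 marker lists was 2-fold apart in any comparison, where between 0.338% and 1.7% of kept genes were. Below 2-fold, the smooth muscle marker Cnn1 differed between genotypes by -0.76 with TGF-b1 and -0.90 without it.

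Prostaglandin E2 is made in 3 steps. Cytosolic phospholipase A2 (Pla2g4a) frees arachidonic acid from membranes, a cyclooxygenase (Ptgs1, present in most cells, or Ptgs2, induced by growth factors and cytokines) turns it into prostaglandin H2, and a terminal synthase (Ptges, Ptges2 or Ptges3) completes it. Hpgd oxidises and so inactivates the product. Cells sense it through G protein-coupled receptors, of which EP2 (Ptger2) and EP4 (Ptger4) raise cyclic AMP and EP3 (Ptger3) mostly lowers it. In bone marrow stroma and fibroblasts this signal acts on bone turnover, immune cells and neighbouring tumour cells.

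The promoters of the 2 members that the comparisons turn on follow, since the design concerns a DNA-binding repressor and a SMAD-activating cytokine. Ptgs2 had the highest response to TGF-b1 among the members, and the genotype difference of Ptger4 was nearly the same with and without TGF-b1. The sequences are the 250 bases before the annotated start, 5′ to 3′ on the gene's strand, from RefSeq with build GRCm38.p6. The Ptgs2 stretch is chr1:150099781-150100030, plus strand, and the Ptger4 stretch is chr15:5244188-5244437, minus strand. Capitals mark CAGGTG or its reverse complement CACCTG, the E-box that Snail proteins bind, and GTCTG or its reverse complement CAGAC, which holds the SMAD core.
Ptgs2: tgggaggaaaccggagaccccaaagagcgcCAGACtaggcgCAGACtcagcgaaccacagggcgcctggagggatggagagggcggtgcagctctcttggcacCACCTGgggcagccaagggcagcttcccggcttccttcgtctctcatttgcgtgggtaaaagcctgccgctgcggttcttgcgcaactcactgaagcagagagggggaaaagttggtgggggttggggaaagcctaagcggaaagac
Ptger4: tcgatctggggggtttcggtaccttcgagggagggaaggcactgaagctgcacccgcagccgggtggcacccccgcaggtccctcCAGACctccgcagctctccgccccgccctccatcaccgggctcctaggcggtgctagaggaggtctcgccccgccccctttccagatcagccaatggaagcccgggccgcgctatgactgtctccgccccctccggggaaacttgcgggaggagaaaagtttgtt
The Ptgs2 stretch held 1 E-box, which began 147 bases before the start, and 2 copies of CAGAC, while Ptger4 held 1 copy of CAGAC and no E-box of these letters.

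Motifs were searched on both strands in the whole RefSeq window of 300 bases, 250 before the start and 50 after it, for all 10 genes. CAGGTG was found for 3 of the 10, Ptgs2, Hpgd and Ptger3, and in 20.2% of all 32851 windows. These are the 26 bases around it in the other genes, at chr8:56294443-56294468 for Hpgd and chr3:157566760-157566785 for Ptger3, both on the plus strand, with the E-box in capitals.
Hpgd: tgctcaggggCAGGTGacacaatgtc
Ptger3: ggcgcggcgcCAGGTGatcccagccc
Of the 3 genes with the E-box, Ptgs2 alone was measured above the filter. GTCTG was found for 8 of 10 genes and in 49.6% of windows, and the SMAD palindrome GTCTAGAC for 0 of 10 and in 0.213%. The cyclic AMP response element TGACGTCA was found for 0 of 10 (1.79% of windows) and its part TGACG, which the full element contains, for Ptgs2 and Ptges3 (20.8%). TATAAA was found for Hpgd and Pla2g4a (13.6%) and GGG followed after any 4 bases by CCC, the core of NF-kB sites, for Ptges3 (11.9%). These matches describe letters in the windows and say nothing on binding.

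The first question is what TGF-b1 did to these genes within 2 h. Ptgs2, the inducible cyclooxygenase, was higher after TGF-b1 in both genotypes, and no other kept member reached 1.5-fold in either. Ptgs2 measured 11.13 in Snail1-KO cells given TGF-b1, against 9.96 in untreated Snail1-KO cells. In Snail1-WT cells it measured 11.56 with TGF-b1, against 10.57 without. Both treated arrays were therefore above both untreated arrays. As a yardstick, 29.5% of kept genes were higher by some amount in both genotypes, and 1.83% by 1.5-fold or more in both. The increase of Ptgs2 was 1.17 (2.25-fold) in Snail1-KO and 0.99 (1.99-fold) in Snail1-WT cells. Its noise SD was 0.08, and the difference of these responses was 0.18. At 2-fold, 1 of 6 kept members was thus higher in Snail1-KO cells, where 0.999% of 13308 kept genes were, and 0 of 6 in Snail1-WT cells, where 0.714% were, Ptgs2 lying just under the limit. At 1.5-fold Ptgs2 was the 1 member counted in each genotype, against 3.31% of genes higher in Snail1-KO and 2.48% in Snail1-WT cells. In Snail1-KO cells 81 kept genes, Ptgs2 included, were higher by at least as much as Ptgs2, and in Snail1-WT cells 100. Less RNA per cell and fewer cells that make a transcript cannot be told apart in such bulk samples, here and in the comparisons that follow.

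**Figure D1:**
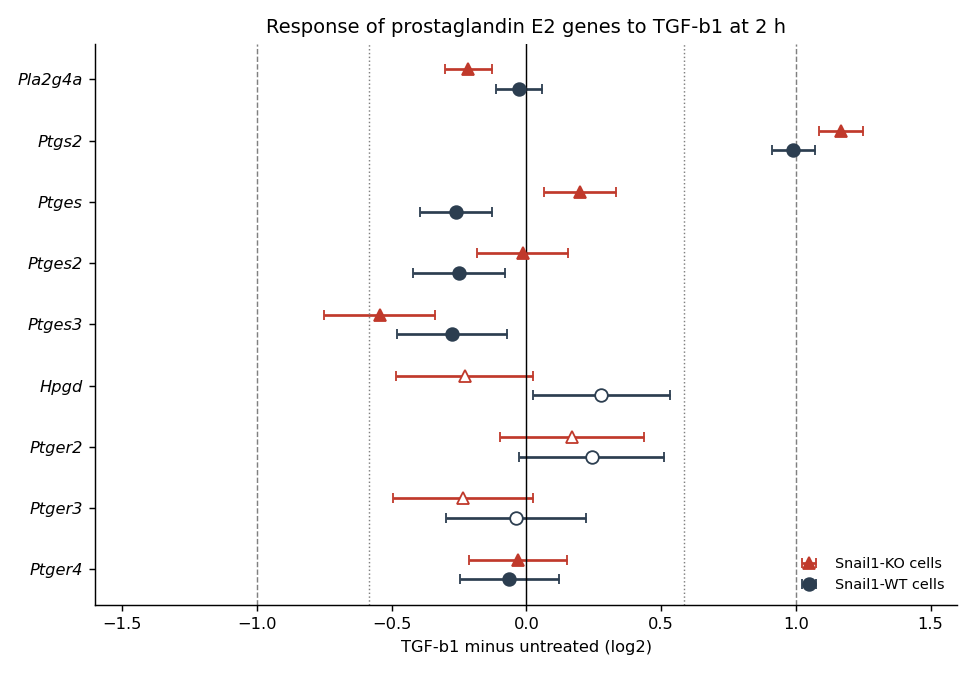
Difference of RMA log2 values, TGF-b1 minus untreated, for the 9 measured members in Snail1-KO (triangles) and Snail1-WT cells (circles), 1 array per group. Bars show 1 noise SD on each side, open symbols mark members below the filter, and dotted and dashed lines mark 1.5-fold and 2-fold; Ptgs2 stands alone at 1.17 and 0.99.

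None of the enzymes on either side of the cyclooxygenase step reached 1.5-fold. Pla2g4a, which supplies the arachidonic acid, measured 8.50 in treated and 8.72 in untreated Snail1-KO cells, a difference of -0.22, and 8.73 in treated and 8.76 in untreated Snail1-WT cells, a difference of -0.03. Its noise SD was 0.09, so the value in Snail1-KO cells exceeded it and the other did not. Ptges, the inducible microsomal synthase usually coupled to Ptgs2, measured 7.47 in treated and 7.27 in untreated Snail1-KO cells, and 7.03 in treated and 7.29 in untreated Snail1-WT cells. Its differences of 0.20 and -0.26 had opposite signs, each beyond a noise SD of 0.13, and the difference of the responses was 0.46. In that last comparison 0 of 6 members passed 1.5-fold in either direction, and 3.58% of kept genes did.

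The other synthases and the inactivating enzyme were also within 1.5-fold. Ptges3, the cytosolic synthase that is also the HSP90 co-chaperone p23, measured 4.82 in treated and 5.36 in untreated Snail1-KO cells. In Snail1-WT cells it measured 4.98 with TGF-b1 and 5.26 without it. The probe set used had a mean of 5.10, near the lowest kept mean of 4.51, and the 2 left out are not shown. After TGF-b1 Ptges3 differed by -0.54 in Snail1-KO and -0.28 in Snail1-WT cells, with a noise SD of 0.21. Both treated arrays lay below both untreated ones, and 38% of kept genes were lower by some amount in both genotypes. Ptges2, a membrane-associated synthase, differed by -0.01 in Snail1-KO and -0.25 in Snail1-WT cells (noise SD 0.17). Hpgd, below the filter, measured 3.85 in treated and 4.08 in untreated Snail1-KO cells, and 4.17 in treated and 3.89 in untreated Snail1-WT cells. Its noise SD among all genes of like level was 0.25, and treated and untreated arrays overlapped.

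The receptors differed little between treated and untreated arrays. Ptger4, the only receptor among the members above the filter, differed by -0.03 in Snail1-KO and -0.06 in Snail1-WT cells, both inside its noise SD of 0.18. A further receptor gene, Ptger1, was on the list of other prostanoid genes and was not measured. Ptger2 measured between 3.28 and 3.60 on the 4 arrays and differed by 0.17 in Snail1-KO and 0.24 in Snail1-WT cells. Ptger3 measured between 3.97 and 4.35 and differed by -0.24 and -0.04 in the same order. Both were under the lowest kept mean of 4.51 on every array, and all 4 of these differences were smaller than the noise SD at their level (0.27 for Ptger2 and 0.26 for Ptger3).

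**Figure D2:**
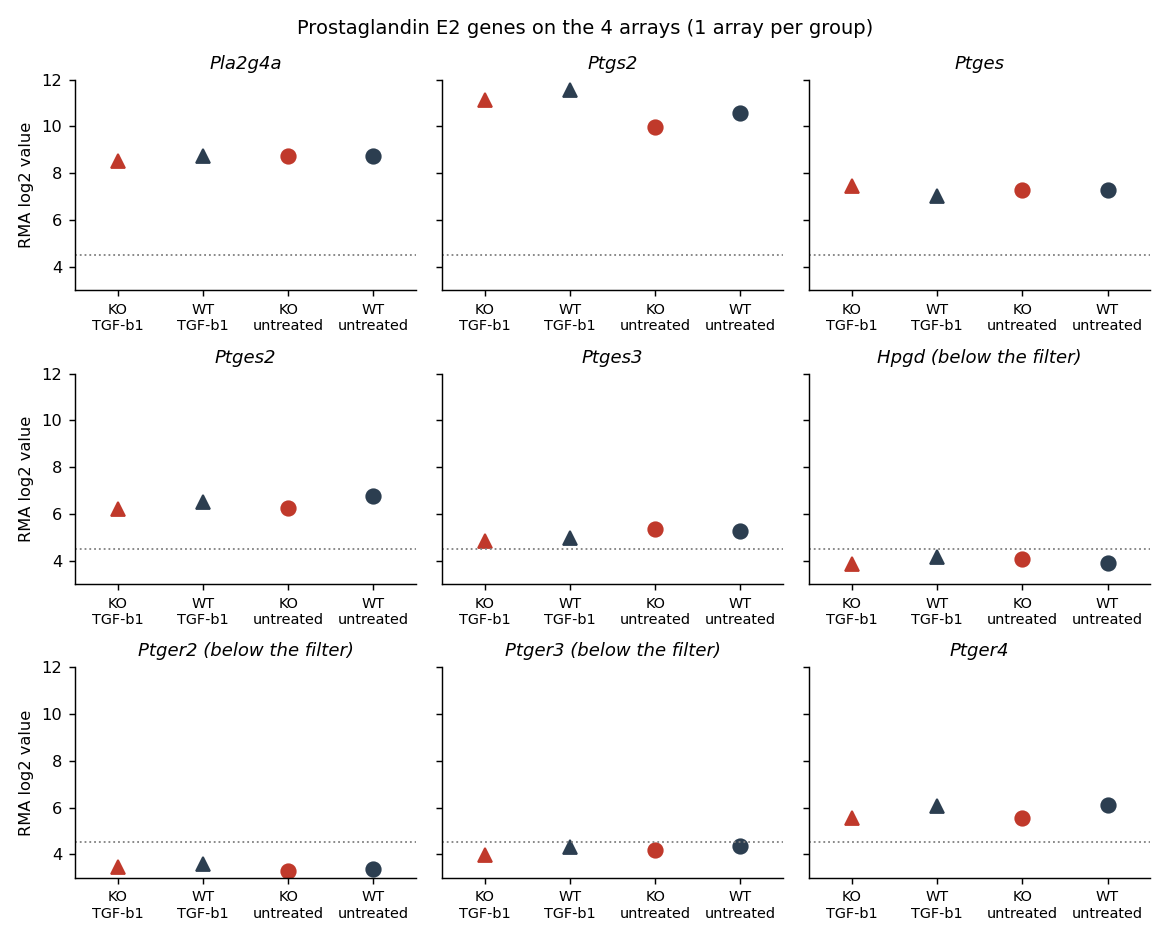
RMA log2 value of each measured member on each of the 4 arrays, 1 panel per gene, with Snail1-KO in red, Snail1-WT in blue, TGF-b1 as triangles and untreated as circles. The dotted line is the lowest kept mean of 4.51; Ptgs2 spans 9.96 to 11.56, while Hpgd, Ptger2 and Ptger3 stay below the line.

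The second question is how Snail1-KO cells differed. With and without TGF-b1, Ptgs2, Ptges2 and Ptger4 had lower values in Snail1-KO cells, by less than 2-fold, and Ptges had a higher one with TGF-b1. None of the 6 kept members was 2-fold apart in either pair, where 1.7% of kept genes were with TGF-b1 and 1.57% without it. Ptgs2 differed by -0.43 with TGF-b1 and by -0.61 without it, that is, it was 1.35-fold and 1.53-fold lower in Snail1-KO cells. At 1.5-fold it was the 1 member lower without TGF-b1, against 3.13% of genes, and 0 members were lower with it, against 3%. The treated Snail1-KO array, at 11.13, still lay above the untreated Snail1-WT array, at 10.57.

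Ptger4, whose receptor couples prostaglandin E2 to cyclic AMP, measured 5.54 in Snail1-KO and 6.05 in Snail1-WT cells given TGF-b1, and 5.58 in Snail1-KO and 6.11 in Snail1-WT cells without it. Both Snail1-KO arrays were below both Snail1-WT arrays, with differences of -0.50 and -0.54 and a noise SD of 0.18. Ptges2 measured 6.21 in Snail1-KO and 6.50 in Snail1-WT cells given TGF-b1, and 6.23 in Snail1-KO and 6.75 in Snail1-WT cells without it. Its differences of -0.29 and -0.53 again left both Snail1-KO arrays lowest, beyond a noise SD of 0.17. As a yardstick, 36.4% of all kept genes were below 0 by some amount in the treated as well as the untreated pair, and 1.65% were lower by 1.5-fold in each, and none of the 6 kept members reached 1.5-fold in both.

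Ptges differed by -0.02 without TGF-b1 and was higher by 0.44 in Snail1-KO cells given TGF-b1 (noise SD 0.13). No member passed 1.5-fold upward in either pair, where 5.14% of kept genes did with TGF-b1 and 4.01% without it. Pla2g4a differed by -0.23 with TGF-b1 and -0.04 without it, and Ptges3 by -0.17 and 0.10. Among the members below the filter, Hpgd differed by -0.32 with TGF-b1 and 0.19 without it, Ptger3 by -0.34 and -0.14, and Ptger2 by -0.16 and -0.08. Of the 9 measured members, 8 were below 0 in the treated pair and 7 in the untreated pair, where 52.5% and 49.3% of all 22180 genes were. The medians over the 9 were -0.29 and -0.08, beside -0.02 and 0.01 over all genes.

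**Figure D3:**
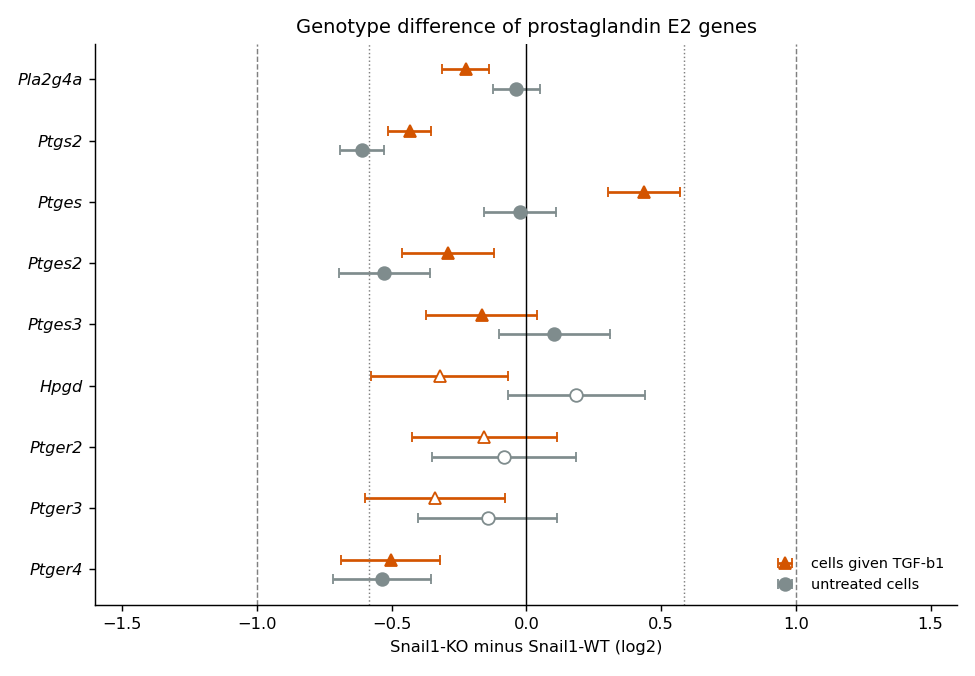
Difference of RMA log2 values, Snail1-KO minus Snail1-WT, for the 9 measured members in cells given TGF-b1 (triangles) and untreated cells (circles), 1 array per group. Bars show 1 noise SD on each side, open symbols mark members below the filter, and dotted and dashed lines mark 1.5-fold and 2-fold; Ptgs2, Ptges2 and Ptger4 are left of 0 in both pairs.

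All 4 arrays were also fitted together, which allows a test. Genotype and treatment were additive terms in limma, with 1 residual degree of freedom, a spread shared among genes of like level and Benjamini-Hochberg adjustment over 13308 genes. For genotype, Ptgs2 had a mean difference of -0.52 (SE 0.05, adjusted p = 3.65e-21 in limma), Ptger4 one of -0.52 (SE 0.14, adjusted p = 0.0013) and Ptges2 one of -0.41 (SE 0.12, adjusted p = 0.00412). These 3 of 6 kept members were lower in Snail1-KO cells and 0 were higher, where the fit called 14.3% of kept genes lower and 16.5% higher. Ptges, at 0.21 (SE 0.10, limma adjusted p = 0.0939), Pla2g4a and Ptges3 did not pass 0.05. For TGF-b1, Ptgs2 was called, at 1.08 (SE 0.05, adjusted p = 9.24e-89 in limma), 1 of 6, where 8.77% of kept genes were called higher. Ptges3 came to -0.41 (SE 0.16, limma adjusted p = 0.0542) and did not pass, and 9.08% of kept genes were called lower.

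These p-values set the effect against the disagreement between pairs of arrays and not against separate cultures, and the prior degrees of freedom were estimated as infinite. With a spread not tied to level the limma adjusted p for genotype was 0.0146 for Ptgs2, 0.012 for Ptger4 and 0.0374 for Ptges2, and for TGF-b1 it was 0.0017 for Ptgs2.

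**Figure D4:**
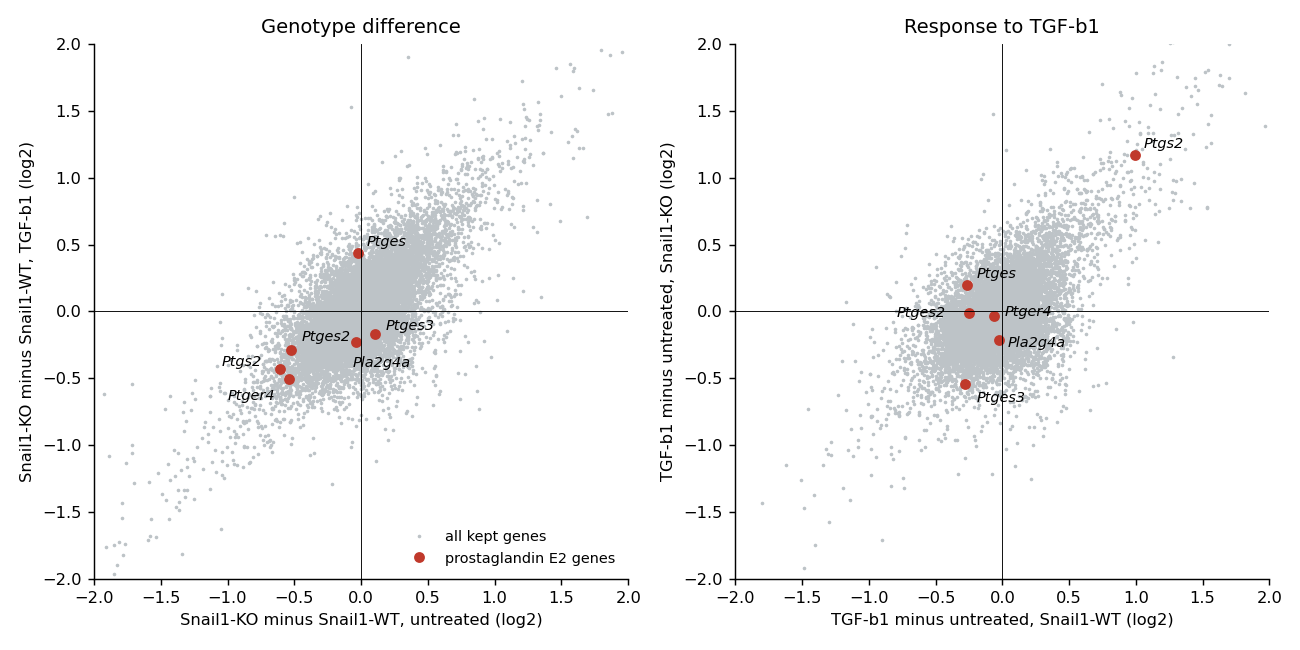
Each grey point is 1 of 13308 kept genes and red points are the 6 kept members. The left panel plots Snail1-KO minus Snail1-WT (log2) with TGF-b1 against the same difference without it, and the right panel plots TGF-b1 minus untreated (log2) in Snail1-KO against Snail1-WT cells. Axes end at 2 on both sides, which leaves out 16 and 20 genes; in the right panel Ptgs2 lies among the genes raised in both genotypes and the other members lie in the central cloud.

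The genes with the profile closest to that of Ptgs2 were sought among all kept genes, by the root mean square distance between log2 values centred on each gene's mean over the 4 arrays. They were Mical2 (distance 0.04), Atoh8 (0.06), Kif26b (0.07), Chst2 (0.08) and Bach2 (0.09). MICAL2 is an actin-oxidising enzyme, ATOH8 and BACH2 are transcription factors, KIF26B is a kinesin family protein and CHST2 is a sulfotransferase. Mical2, the nearest, differed after TGF-b1 by 1.27 in Snail1-KO and 0.93 in Snail1-WT cells, and between genotypes by -0.37 with TGF-b1 and -0.71 without it. With 4 arrays such a ranking is a description, and no correlation is given.

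**Figure D5:**
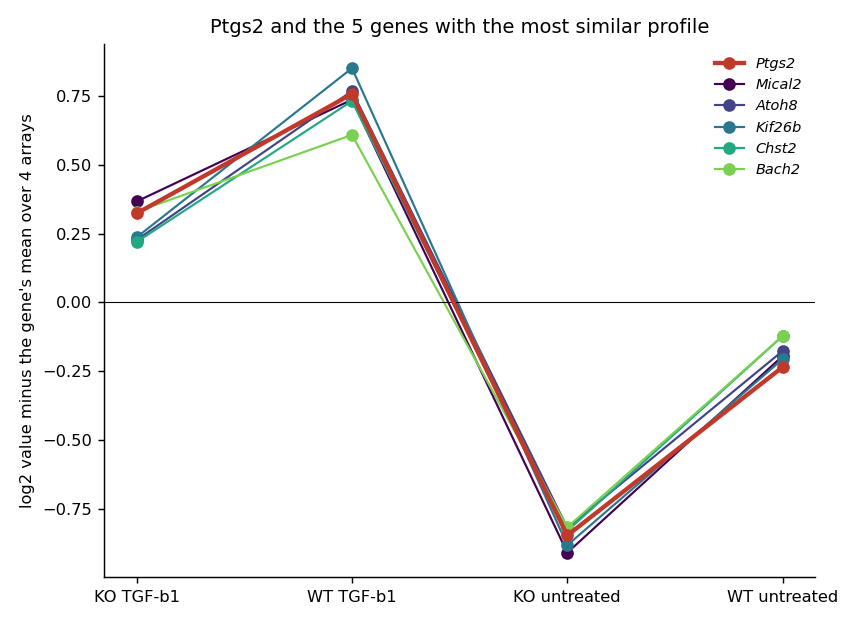
RMA log2 value minus the gene's own mean over the 4 arrays, for Ptgs2 (thick red line) and the 5 genes nearest to it. Lines only join the values of a gene. All 6 genes are highest in Snail1-WT cells given TGF-b1 and lowest in untreated Snail1-KO cells.

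Other prostanoid genes were listed to show what surrounds these steps, and 15 of 18 were measured. Cbr1, a carbonyl reductase that can convert prostaglandin E2 into prostaglandin F2α, measured 4.65 in Snail1-KO and 6.09 in Snail1-WT cells given TGF-b1, and 5.0 in Snail1-KO and 6.79 in Snail1-WT cells without it. Its differences were -1.43 and -1.79, and its dimmer probe set gave -0.87 and -1.01. Akr1c18, a hydroxysteroid dehydrogenase of the aldo-keto reductase family, differed by -0.62 with TGF-b1 and -1.92 without it. Both Snail1-KO arrays, at 4.28 with TGF-b1 and 3.70 without it, were under the lowest kept mean, so both sizes are uncertain. Of the list 12 genes were kept. At 2-fold 1 of these 12, Cbr1, was lower in the treated pair (0.631% of all kept genes). In the untreated pair 2 of 12 were, Cbr1 and Akr1c18 (0.744%). Akr1c18 passed the filter only through its Snail1-WT arrays, at 4.90 with TGF-b1 and 5.62 without it, so nothing is read from counting it.

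The brightest other genes of the list differed by less than 2-fold. Slco2a1, which takes prostaglandins up into cells, differed between genotypes by -0.29 with TGF-b1 and -0.14 without it, and after TGF-b1 by -0.42 in Snail1-KO and -0.27 in Snail1-WT cells. Ptgfr, the prostaglandin F2α receptor, differed after TGF-b1 by -0.74 in Snail1-KO and -0.80 in Snail1-WT cells. Ptgis, the prostacyclin synthase, differed between genotypes by 0.49 with TGF-b1 and 0.37 without it. Zadh2, a prostaglandin reductase gene, differed after TGF-b1 by -0.56 in Snail1-KO and -0.37 in Snail1-WT cells. The list held 0 genes at 2-fold after TGF-b1 in either genotype, where 1.31% of kept genes were in Snail1-KO and 0.984% in Snail1-WT cells, so that the count says little. Its medians were -0.07 in Snail1-KO and -0.27 in Snail1-WT cells, beside -0.02 and -0.01 over all genes.

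Of 16 genes that release or recycle arachidonic acid 15 were measured and 12 kept, and 0 were 2-fold apart in any comparison. Over all kept genes that share was 1.7% and 1.57% between genotypes with and without TGF-b1, 1.31% and 0.984% after TGF-b1 in Snail1-KO and Snail1-WT cells, and 0.338% for the difference of the responses. Anxa1, a protein that restrains phospholipase A2, differed between genotypes by 0.35 with TGF-b1 and 0.36 without it, with a noise SD of 0.08. Mboat7, which returns arachidonic acid to phosphatidylinositol, differed by -0.43 and -0.71 (noise SD 0.13). Lpcat3 differed by 0.27 and 0.20, and Acsl4, which activates arachidonic acid with coenzyme A, by -0.11 and 0.09. Of 8 lipoxygenase and leukotriene genes, Alox5ap, which presents arachidonic acid to the leukotriene-forming enzyme, was 2-fold higher in Snail1-KO cells given TGF-b1. It measured 6.34 in Snail1-KO and 5.14 in Snail1-WT cells there, a difference of 1.19, and 6.50 in Snail1-KO and 5.76 in Snail1-WT cells without TGF-b1, a difference of 0.74. Of the 8 genes 6 were kept, and that 1 of 6 stands beside 1.07% of all kept genes. A dimmer probe set of Alox5ap gave 0.15 and 0.08. Alox5ap is known for its level in myeloid cells, and some haematopoietic markers also had higher values in Snail1-KO cells. With and without TGF-b1, Lyz2 differed by 0.71 and 0.54, Cd14 by 0.59 and 0.42 and Ptprc by 0.36 and 0.33, Lyz2 and Ptprc being below the filter. Of the other kept markers, Csf1r differed by -0.55 and -0.12, Cd68 by -0.05 and 0.05 and Cd3e by -0.20 and 0.10. Lyz2, Cd14 and Ptprc were the only 3 of 12 above 0 with TGF-b1, and 9 of 12 were without it. The list's median level was 4.11 in Snail1-KO and 4.13 in Snail1-WT cells given TGF-b1. Without it the median was 4.10 in Snail1-KO and 3.94 in Snail1-WT cells. The part of such cells in the Alox5ap difference was not tested. The enzyme gene Alox5 itself differed by -0.28 and -0.06, Lta4h by 0.24 and 0.13, and Ltc4s by 0.31 and -0.12.

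Genes that cyclic AMP induces in many cells were also listed. Whether prostaglandin E2 acts on them in these cells was not tested. Of 12 measured, 10 were kept. Of these 10, 2 were 2-fold lower after TGF-b1 in each genotype, Rgs2 and Dusp1. Among all kept genes 0.308% were in Snail1-KO and 0.271% in Snail1-WT cells. Rgs2, a regulator of G protein signalling, differed by -1.37 in Snail1-KO and -1.41 in Snail1-WT cells, and Dusp1, a MAP kinase phosphatase, by -1.26 and -1.51. A dimmer probe set of Rgs2 gave -0.30 and -0.16. The list's medians after TGF-b1 were -0.42 in both genotypes, beside -0.02 in Snail1-KO and -0.01 in Snail1-WT cells over all genes. In each genotype 8 of the 12 were below 0, where 53.5% of all genes were in Snail1-KO and 51.2% in Snail1-WT cells. Among the 4 above 0 in each were Nr4a1, at 0.79 in Snail1-KO and 0.28 in Snail1-WT cells, and Fos, at 0.53 and 0.17. Between genotypes 0 of 12 were 2-fold apart, a count that says little where 1.7% of kept genes were with TGF-b1 and 1.57% without it. The medians were 0.21 with TGF-b1 and 0.18 without it, beside -0.02 and 0.01 over all genes. With TGF-b1 3 of 12 were below 0 and without it 4, where 52.5% and 49.3% of all genes were. Rgs2 differed between genotypes by 0.94 with TGF-b1 and 0.90 without it, and its dimmer probe set by 0.12 and 0.27.

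Genes that induce Ptgs2 or Ptges, or act on their transcripts, had lower values in untreated Snail1-KO cells in 11 of 11 measured cases, with differences between -1.71 and -0.12, where 49.3% of all genes were below 0. Of the 11, 8 were kept, and 1 of these 8 was lower by 1.5-fold, against 3.13% of kept genes. Their median over the 11 was -0.34, beside 0.01 over all genes, and with TGF-b1 it was -0.15 with 10 of 11 below 0, where 52.5% of all genes were. Egr1, a zinc finger activator of Ptges, was the 1 gene 2-fold lower in the untreated pair, against 0.744% of kept genes, at 7.03 in untreated Snail1-KO and 8.75 in untreated Snail1-WT cells, a difference of -1.71. With TGF-b1 Egr1 measured 8.06 in Snail1-KO and 8.60 in Snail1-WT cells. The genes for the inducers themselves, Il1a, Il1b and Tnf, were below the filter. Zfp36, listed for its action on transcripts and not as an inducer, differed by -0.27 without TGF-b1 and 0.19 with it. The list thus mixes genes of unlike action and was put together with earlier results known. Its shared direction is not read as a loss of inducers.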

How the data were processed

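RNA from 4 groups of mouse mesenchymal stem cells was hybridised to 1 array each. Per the labels' protocols, labelling used 100 ng of total RNA and a WT PLUS kit. Deposited values are on the log2 scale. The submitters' processing notes name RMA and R 3.1.1, and RMA removes any shift that most genes share. Genome build: not given in the sources used here. Array medians ran from 4.58 to 4.63. Precision is limited by the number of arrays.

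Groups came from sample titles and gene names from GEO's platform table, where 23521 of 41345 probe sets had 1 symbol, 1814 several, and 16010 were not named here. The brightest probe set stood for a gene, and 13308 genes passed the level filter. Differences were counted at 2-fold and 1.5-fold. The additive fit used limma 3.58.1 in R 4.3.3 (trend, threshold 0.05), and its code was run on simulated data. Those data had independent noise and no difference between cultures. The run therefore cannot show whether the p-values hold for single arrays. Other steps used Python 3.11.15, numpy 2.4.6, pandas 2.3.3 and matplotlib 3.10.9.

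Members and lists were chosen with earlier results of these data known. Named were every member, Snai1, list genes 2-fold apart in any comparison, up to 4 genes with the highest mean of the prostanoid, arachidonate and lipoxygenase lists, and for each kept member 2-fold apart the 5 genes most alike, leaving out gene models and clone names. Marker genes, Il1a, Il1b and Tnf were added after their values were seen. For members below the filter, the noise SD came from the 500 nearest of all genes, an addition made after seeing the data.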

Additional observations from a re-analysis of the deposited data

Results flagged for a closer look

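The responses of Ptges, Akr1c18, Egr1 and Ptgir to TGF-b1 had opposite signs in Snail1-KO and Snail1-WT cells, each beyond the noise SD. How many of all kept genes do so was not counted, so these genes are only described. Only the members, Snai1, list genes 2-fold apart in any comparison, Ptgir and Il1r1 were checked for this. Among list genes not checked, Nr4a2 went the other way, at -0.39 in Snail1-KO and 0.33 in Snail1-WT cells (noise SD 0.15). Pla2g2e, also not checked, differed by 0.26 in Snail1-KO and -0.42 in Snail1-WT cells (noise SD 0.22). The noise SD is for a difference of 2 arrays, and a difference of 2 responses varies more. The difference of the responses was not tested, since each group had 1 array. It was 2-fold or more either way for 0.338% of kept genes, a size that Akr1c18 and Egr1 reached. For 3.63% of kept genes it was as high as for Ptges or higher. Ptges differed by 0.20 in Snail1-KO and -0.26 in Snail1-WT cells (noise SD 0.13), and the difference of its responses was 0.46. Akr1c18 differed by 0.58 in Snail1-KO and -0.72 in Snail1-WT cells (noise SD 0.23), a difference of 1.30. Both of its Snail1-KO arrays, at 4.28 with TGF-b1 and 3.70 without it, were under the lowest kept mean of 4.51. The sizes of its Snail1-KO response and of this difference are therefore uncertain. Egr1 differed by 1.03 in Snail1-KO and -0.14 in Snail1-WT cells (noise SD 0.11), a difference of 1.17. Ptgir, picked out after its values were seen, differed by 0.47 in Snail1-KO and -0.30 in Snail1-WT cells (noise SD 0.14), a difference of 0.76.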

How the results depend on the processing

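All 90 differences of members recomputed under median centring or cyclic loess kept their sign and stayed within 1 noise SD, the largest move being 0.07. With 1.5-fold in place of 2-fold, 1 member (Ptgs2) was counted in the untreated genotype comparison and 1 (Ptgs2) in the TGF-b1 response of Snail1-WT cells, against 0 in each at 2-fold. Counts of members at 2-fold were the same with no filter, with the upper 40% of genes, with the mean of all probe sets, and under both normalizations. In limma, 3 members were called for genotype under all 5 alternatives, while the TGF-b1 term called 2 with the mean of all probe sets and 2 with cyclic loess, against 1, because Ptges3 then had adjusted p = 0.0459 and 0.049. Over all genes, the fit with no trend called 2345 genes for genotype and 898 for TGF-b1, against 4107 and 2376. Genes 2-fold apart in their responses numbered 197 with no filter and 4 in the upper 40%, against 45. Means over both probe sets moved Cbr1 to -1.15 with and -1.40 without TGF-b1, Alox5ap to 0.67 and 0.41 in the same pairs, and the TGF-b1 response of Rgs2 to -0.84 in Snail1-KO and -0.78 in Snail1-WT cells. The additive fit already sets each genotype difference within a treatment and each response within a genotype. A further block on replicate numbers could not be fitted, since each group has 1 array and the labels carry no such numbers.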

Other observations

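Ptgir, the receptor for prostacyclin, was picked out after its values were seen. It measured 7.31 in Snail1-KO and 6.59 in Snail1-WT cells given TGF-b1, and 6.85 in Snail1-KO and 6.89 in Snail1-WT cells without it, so that it was higher by 0.72 in the treated pair and level, at -0.04, in the untreated pair. Its response to TGF-b1 was 0.47 in Snail1-KO and -0.30 in Snail1-WT cells, with a noise SD of 0.14. The interleukin-1 receptor gene Il1r1, also picked out after its values were seen, measured 9.61 in Snail1-KO and 10.25 in Snail1-WT cells given TGF-b1, and 9.88 in Snail1-KO and 10.30 in Snail1-WT cells without it. Both of its Snail1-KO arrays were below both Snail1-WT arrays, with differences of -0.63 and -0.42 and a noise SD of 0.08. Of all kept genes 36.4% were lower by some amount in both pairs, and 3% by 1.5-fold in the treated pair. The noise SD leaves out what separates the cultures of the 2 genotypes alike with and without TGF-b1.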
